A study of Mus musculus with 6 samples.

Results

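Adaptive regulatory T cells (aTreg) are CD4 T cells in which activation in the presence of TGF-beta switches on Foxp3, the factor that specifies regulatory T cells. This account describes 33 genes of cholesterol and fatty acid synthesis in such cells. They were taken by name: enzymes of the sterol and fatty acid pathways, the SREBP transcription factors and the proteins that hold or release them, and genes of sterol transport and efflux. Of the 33 names, 32 had a row among the 25759 gene identifiers of the table, and these 32 passed the filter on low values that left 13413 genes for testing. The expression of Mvd was not analysed here.

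The study compared 3 wild type (WT) libraries with 3 libraries from BMPR1a-deficient mice, in which Cre under Cd4 control is used against Bmpr1a, which encodes a receptor of the BMP pathway. The Cre acts in cells that have expressed Cd4, which includes the CD8 lineage because its precursors pass through a stage that carries both coreceptors. All mice were C57BL/6, 8 to 12 weeks old, and carried a Foxp3-GFP reporter. The cells of lymph nodes and spleen were kept for 3 days in 2 µg/ml of concanavalin A, a lectin that activates T cells, with 3 ng/ml of TGF-beta and 10 ng/ml of IL-2, after which CD4+ cells with GFP were sorted. Whether each library had its own animal or culture is not in the labels, so p-values measure only the spread between these samples, and that spread may be technical. BMPR1a-deficient libraries are called deficient from here on.

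Values are FPKM, the fragments of a gene scaled to its length and to the depth of the library, so levels can be compared between genes. The table gives no counts, and its smallest steps pointed to about 30700000 to 38500000 fragments per library. Bmpr1a was at 1.39, 2.34 and 1.31 FPKM in WT and at 0.439, 0.720 and 0.691 in deficient cells (limma adjusted p = 0.183, groups not overlapping). The defining markers of sorted aTreg were present: Cd4 lay between 329 and 436 FPKM and Foxp3 between 49.4 and 96.9. Deficient replicate 1 stood apart, with the sum of 13 mitochondrially encoded transcripts at 10.9% of the mean of the other 5 libraries. Replicates 2 and 3 also lay below each WT library in that sum (44657 and 44713 FPKM, against 50442 to 53789), and 9 of the 13 transcripts were lower in each deficient library (10.4% of all tested genes were). The part of this shift in the differences described here was not tested. Fold changes that moved by over 1.5 times without deficient replicate 1 are given both ways.

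A proliferating T cell needs sterols and fatty acids for new membranes. The mevalonate pathway condenses acetyl-CoA into isoprenoid units, joins them to squalene, and closes and trims the ring to cholesterol. SREBP proteins turn these genes on: they are held in the endoplasmic reticulum by SCAP and INSIG when sterol is plentiful, and are carried to the Golgi and cleaved when it is scarce. Liver X receptors (LXR) sense oxidised sterols and turn on efflux carriers and several fatty acid genes.

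Promoter windows, the 250 bases before a RefSeq start in GRCm38.p6, were found for 26 of the 33 genes, Mvd among them. No window was available for Scd1, Scd2, Sqle, Fdft1, Fdps, Stard4 and Abcg1, so the motif counts below leave these genes out. The windows of 4 genes are printed 5′ to 3′ on the gene's strand. They set 2 genes that were lower in each deficient library (Elovl6 and Tm7sf2) beside 2 genes whose groups overlapped (Hmgcs1 and Insig1). Capitals mark matches on either strand to 4 motifs: the core of the sterol regulatory element that SREBP binds (TCACNCCAC), the CCAAT box (CCAAT), the GC box (GGGCGG) and the E-box (CACGTG). The windows are chr3:129532136-129532385 (+) for Elovl6, chr19:6067851-6068100 (-) for Tm7sf2, chr13:119690101-119690350 (+) for Hmgcs1 and chr5:28071162-28071411 (+) for Insig1.
Elovl6: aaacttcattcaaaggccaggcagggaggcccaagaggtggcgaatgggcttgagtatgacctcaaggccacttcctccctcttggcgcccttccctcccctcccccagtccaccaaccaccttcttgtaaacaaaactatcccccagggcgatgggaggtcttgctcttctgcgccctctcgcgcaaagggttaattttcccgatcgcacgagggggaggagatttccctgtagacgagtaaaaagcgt
Tm7sf2: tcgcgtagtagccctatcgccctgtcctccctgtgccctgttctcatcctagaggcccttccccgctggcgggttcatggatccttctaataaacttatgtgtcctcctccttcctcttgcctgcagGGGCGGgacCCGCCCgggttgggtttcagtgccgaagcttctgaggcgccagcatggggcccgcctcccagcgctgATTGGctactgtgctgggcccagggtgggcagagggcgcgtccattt
Hmgcs1: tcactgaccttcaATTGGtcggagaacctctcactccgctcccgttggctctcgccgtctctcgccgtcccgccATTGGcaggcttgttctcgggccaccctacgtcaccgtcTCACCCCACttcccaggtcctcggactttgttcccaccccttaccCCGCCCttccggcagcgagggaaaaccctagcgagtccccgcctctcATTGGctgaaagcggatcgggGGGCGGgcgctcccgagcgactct
Insig1: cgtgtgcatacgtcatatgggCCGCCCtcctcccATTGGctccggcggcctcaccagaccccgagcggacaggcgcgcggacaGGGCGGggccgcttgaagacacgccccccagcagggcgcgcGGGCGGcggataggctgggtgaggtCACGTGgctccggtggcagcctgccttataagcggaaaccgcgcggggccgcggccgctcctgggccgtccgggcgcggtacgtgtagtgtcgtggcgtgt

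The Hmgcs1 window held 1 match to the sterol regulatory element core, 3 to the CCAAT box and 2 to the GC box. The Insig1 window held 1 CCAAT box, 3 GC boxes and 1 E-box, and the Tm7sf2 window 1 CCAAT box and 2 GC boxes. The Elovl6 window held 0 matches to any of the 4. Dhcr7 and Nsdhl, also lower in each deficient library, had windows that are not printed, and both held CCAAT and GC boxes. Over the 26 genes with a window, the sterol element core was found in 1 (3.85%), against 1.22% of the 8505 tested genes that had a window. CCAAT boxes were found in 19 (73.1%, against 41.4%), GC boxes in 21 (80.8%, against 64.1%) and E-boxes in 6 (23.1%, against 10.2%). The CCAAT and GC box counts include Mvd, which is not among the tested genes. The E-box genes were Abca1, Dhcr7, Hsd17b7, Insig1, Sc5d and Scap. None of the 4 motifs contains another. A match describes the letters of the window and not a bound site.

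In deficient aTreg the 3 smallest p-values among these genes belonged to the last steps of fatty acid synthesis. Scd1 and Scd2, the desaturases that turn stearate and palmitate into oleate and palmitoleate, stood at 41.1% and 61.7% of their WT means. In bulk libraries, fewer cells that express a gene and less of its RNA per cell cannot be told apart. Elovl6, which lengthens palmitate to stearate, stood at 62.0%. None of the 32 genes passed the threshold over all genes tested (limma, Benjamini-Hochberg adjusted p under 0.05), where 0.746% of all tested genes were called higher and 0.321% lower. At an unadjusted p under 0.05, 0 were higher (9.29% of all tested genes) and 5 were lower (5.87%). These were Scd1, Scd2, Elovl6, Dhcr7 and Tm7sf2. Under 3 other settings some genes did pass, all of them lower: Scd1 and Elovl6 after quantile normalization (where 0.522% of all tested genes were called lower), these and Scd2 and Dhcr7 with array weights (3.03%), and Elovl6 without deficient replicate 1 (0.567%). At an unadjusted p under 0.05 the fit without that library had 9 of the 32 lower (6.72% of all tested genes) and 2 higher (13.0%).

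Fold changes here are deficient minus WT on the log2(FPKM + 1) scale, which understates the change of low genes. Of the 32 genes, 27 had a negative fold change and 5 a positive one, while 44.5% of all tested genes were negative. The median over the 32 was -0.16, beside 0.038 over all tested genes. In 7 of the 32 each deficient library lay below each WT library, and in 0 each lay above. The same held for 10.4% and 15.9% of all tested genes. The 7 were the 5 named above and the sterol enzymes Nsdhl and Fdft1.

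**Figure D1:**
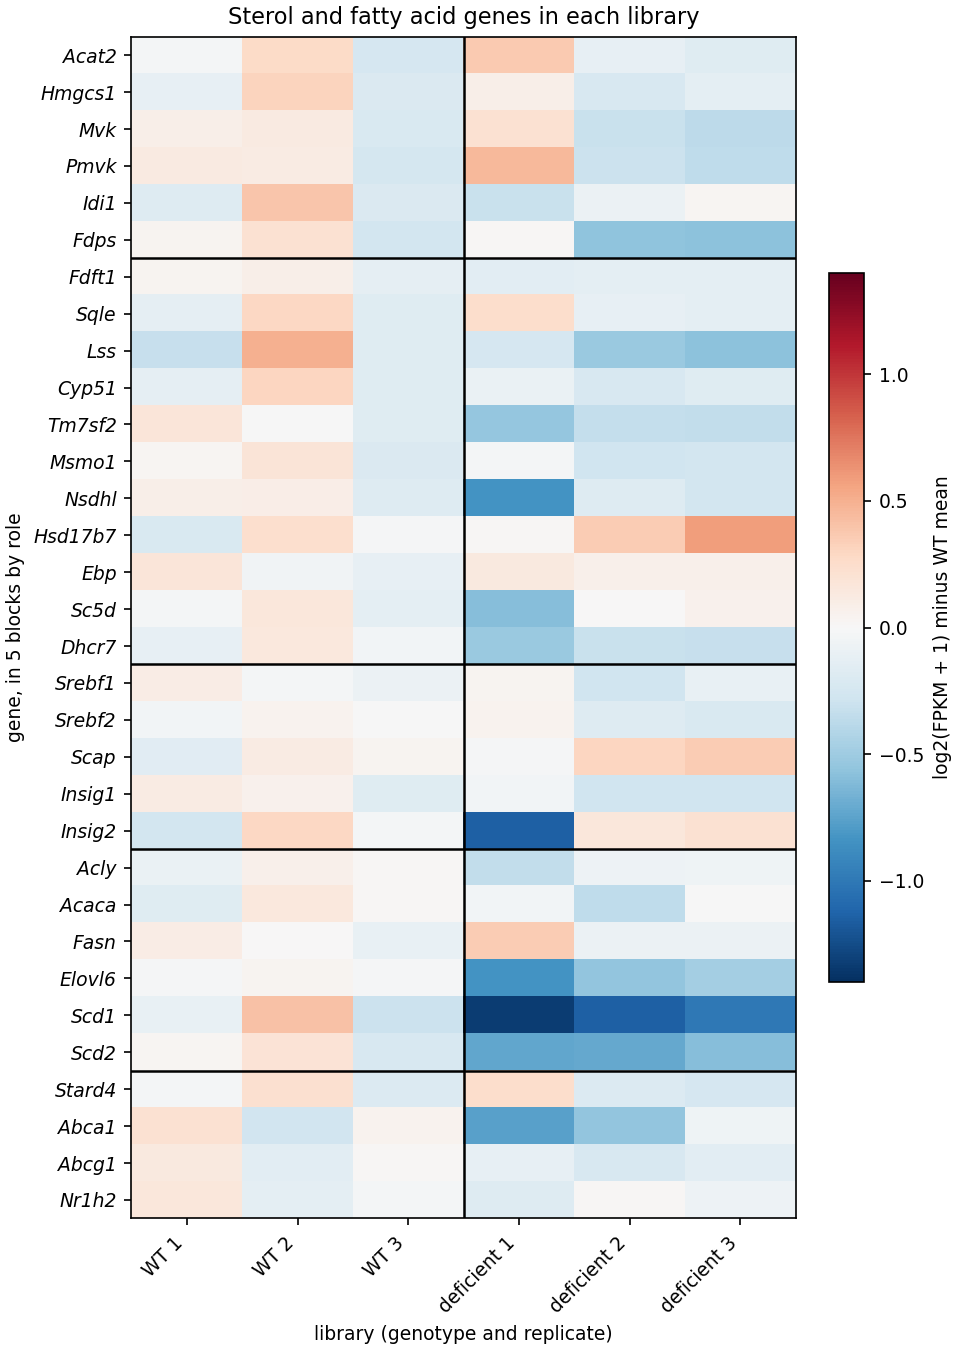
Colour gives log2(FPKM + 1) minus the WT mean for each of the 32 genes (rows, in 5 blocks by role: early sterol synthesis, late sterol synthesis, SREBP and its control, fatty acid synthesis, and transport, efflux and LXR) in each of the 6 libraries (columns). Elovl6, Scd1 and Scd2 are blue in all 3 deficient libraries, while 14 of the 17 sterol enzymes have their highest WT value in replicate 2.

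Fatty acid synthesis begins with Acly, which makes cytosolic acetyl-CoA from citrate, and continues through the carboxylase Acaca and the synthase Fasn. Acly was at 68.9, 77.4 and 74.5 FPKM in WT and at 57.5, 69.8 and 70.5 in deficient cells. The groups overlapped, and the log2 fold change was -0.16 (95% interval -0.45 to 0.13, limma adjusted p = 0.549). Acly was lowest in deficient replicate 1, and its fold change was -0.067 without that library. Acaca was at 9.43 ± 1.15 and 8.51 ± 1.23 FPKM (SD, n = 3 per group) and Fasn at 28.4 ± 2.14 and 29.9 ± 5.64. The 95% interval of the log2 fold change was -0.48 to 0.21 for Acaca and -0.30 to 0.43 for Fasn. Fasn was highest in deficient replicate 1, at 36.5 FPKM, and the sign of its fold change turned from 0.064 to -0.082 without that library. The carbon supply and chain building steps thus had intervals that reach to both sides of 0.

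The steps after the synthase had larger differences. Elovl6 was at 10.3, 10.7 and 10.2 FPKM in WT and at 5.38, 6.75 and 7.16 in deficient cells. The 3 WT values lay close together and each deficient value lay below them. Its log2 fold change was -0.62 (SE 0.118, limma adjusted p = 0.0854). Without deficient replicate 1 it passed the threshold, with a fold change of -0.52 (limma adjusted p = 0.0498).

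Scd1 was at 17.8, 25.9 and 15.4 FPKM in WT and at 7.06, 8.13 and 9.11 in deficient cells. The highest deficient value lay well below the lowest WT value, and WT replicate 2 was the highest of the 6. The log2 fold change of -1.16 was the largest in size among the 32 genes (SE 0.203, limma adjusted p = 0.0709). Without deficient replicate 1 it was -1.07, with a limma adjusted p of 0.113. An exact two-sided permutation test of the 6 values gave p = 0.1, the smallest that 3 against 3 libraries allow.

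Scd2 was the most highly expressed of the 32 genes, above 92.9% of all tested genes in mean FPKM. It was at 164, 184 and 137 FPKM in WT and at 96.1, 96.8 and 105 in deficient cells, so the groups did not overlap. The log2 fold change was -0.68 (SE 0.138, limma adjusted p = 0.0984). Leaving out deficient replicate 1 gave -0.66 and a limma adjusted p of 0.115. Scd2 was thus the main desaturase transcript of these cells: its FPKM was 8.39 ± 1.13 times that of Scd1 in WT and 12.4 ± 1.09 times in deficient libraries (SD, n = 3). The ratio lay between 7.09 and 9.21 in WT and between 11.6 and 13.6 in deficient libraries.

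Scd1 and Scd2 lie near each other on chromosome 19 (GRCm38, 44394455 to 44407879 and 44293674 to 44306864), together with their close copies Scd3 and Scd4. These 2 copies are outside the list and were added because they are copies. Scd3 was at 2.67, 3.10 and 2.53 FPKM in WT and at 1.16, 1.49 and 1.55 in deficient cells (limma adjusted p = 0.0986). Scd4 was at 0.511, 0.618 and 0.531 FPKM and at 0.408, 0.358 and 0.362, below the filter. In each of the 4 genes each deficient library lay below each WT library, as in 10.4% of all tested genes. Scd1 and Scd2 are already among the 7 members named above for this. How reads were divided among such close copies is not given in the sources used here, so the 4 values may share reads.

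**Figure D2:**
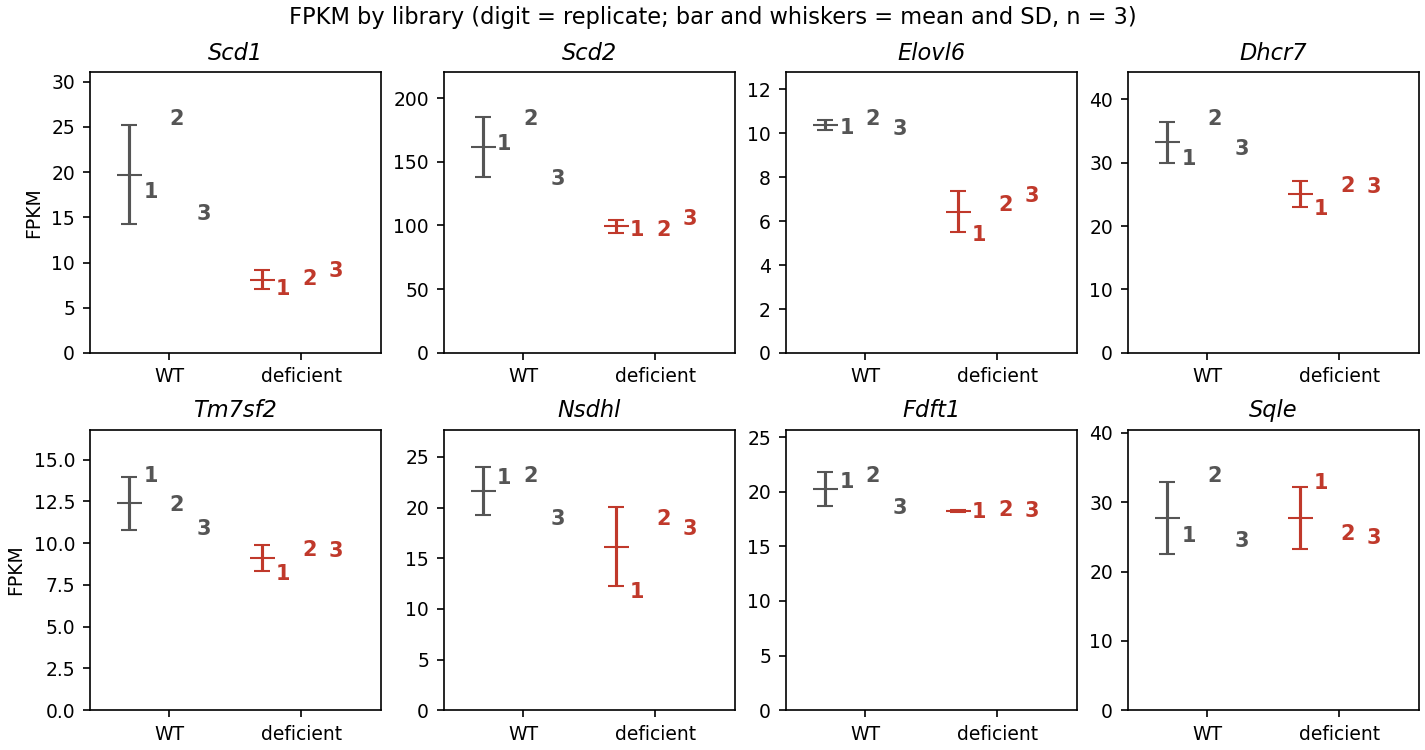
Each panel plots FPKM of 1 gene for WT and deficient libraries: digits mark the replicates, and the bar with whiskers is the mean and SD of 3 libraries. In the first 7 panels each deficient value lies below each WT value, by a wide gap for Scd1 (9.11 against 15.4) and a narrow one for Fdft1 (18.4 against 18.5), and in the Sqle panel the groups overlap.

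Early sterol synthesis, from acetyl-CoA to farnesyl diphosphate, had 6 tested genes, with 0 past the threshold. Their median log2 fold change was -0.11 with all libraries. Relative to the WT mean, their median was 0.15 in deficient replicate 1 but -0.26 in both replicates 2 and 3. Hmgcs1, which makes HMG-CoA, was at 58.7, 79.2 and 55.3 FPKM in WT and at 67.5, 54.2 and 57.6 in deficient cells. Its groups overlapped, and the log2 fold change was -0.09 (95% interval -0.51 to 0.32), or -0.18 without deficient replicate 1. Fdps, which makes farnesyl diphosphate, was the second highest of the 32 genes. It was at 117, 133 and 96.0 FPKM in WT and at 116, 76.9 and 76.8 in deficient cells. Deficient replicate 1 lay within the WT range and the other two below it. With all libraries the log2 fold change of Fdps was -0.37, with a limma adjusted p of 0.451. Leaving out deficient replicate 1 made it -0.57, with a limma adjusted p of 0.155.

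The other early enzymes had small fold changes with all libraries, which moved without deficient replicate 1. Mvk, mevalonate kinase, was at 18.7 ± 2.42 FPKM in WT and 16.9 ± 4.15 in deficient cells (SD, n = 3), and Pmvk, which adds the next phosphate, at 39.0 ± 5.56 and 38.3 ± 13.3. For both, deficient replicate 1 was the highest of the 6 libraries and the other two deficient libraries were the lowest. Without replicate 1 the fold change went from -0.16 to -0.34 for Mvk and from -0.066 to -0.33 for Pmvk (limma adjusted p = 0.243 and 0.288). Acat2, the cytosolic thiolase of the first step, was at 19.9 ± 3.75 and 20.4 ± 4.64 FPKM. Its close copy Acat3, also outside the list, was at 15.1, 16.5 and 13.8 FPKM in WT and at 24.0, 17.7 and 17.9 in deficient cells. Each deficient value of Acat3 lay above each WT value (limma adjusted p = 0.328), and reads may be shared between Acat2 and Acat3. Idi1, the isomerase that makes dimethylallyl diphosphate, was at 43.7 ± 11.1 and 39.5 ± 4.88 FPKM, with its highest value in WT replicate 2, at 56.6. The lowest limma adjusted p of Mvk, Pmvk, Acat2 and Idi1 was 0.698 with all libraries, for Mvk. Without deficient replicate 1 the fold change of Acat2 turned from 0.027 to -0.14, and that of Idi1 went from -0.12 to -0.026.

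Late sterol synthesis, from squalene to cholesterol, had 11 tested genes with 0 past the threshold, 9 negative fold changes and a median of -0.18. Dhcr7, the last reductase, which turns 7-dehydrocholesterol into cholesterol, was at 30.5, 36.9 and 32.1 FPKM in WT and at 22.7, 26.4 and 26.2 in deficient cells. Each deficient value lay below each WT value, and the log2 fold change was -0.39 (SE 0.115, limma adjusted p = 0.209). Tm7sf2, one of the genes for sterol C14 reduction, was at 14.0, 12.3 and 10.8 FPKM and at 8.18, 9.58 and 9.51. Its log2 fold change was -0.40 (SE 0.123, limma adjusted p = 0.222). The Tm7sf2 gene overlaps Vps51 by 532 bases on the same strand in the annotation, so some of its reads may belong to Vps51, which is not a sterol gene. Without deficient replicate 1 the fold changes of Dhcr7 and Tm7sf2 were -0.32 and -0.34 (limma adjusted p = 0.191 and 0.229).

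Nsdhl and Fdft1 also had groups that did not overlap, but by little. Nsdhl, a dehydrogenase of the C4 demethylation complex, was at 22.9, 23.1 and 18.90 FPKM in WT and at 11.6, 18.85 and 17.9 in deficient cells. Deficient replicate 1 was its lowest library, and the log2 fold change was -0.42 with it and -0.22 without it (limma adjusted p = 0.377 and 0.356). Fdft1, squalene synthase, was at 20.9, 21.4 and 18.5 FPKM in WT and at 18.2, 18.4 and 18.3 in deficient cells. Its log2 fold change of -0.14 had a 95% interval of -0.36 to 0.08 (limma adjusted p = 0.502). Fdft1 overlaps Ctsb on the opposite strand by 774 bases, Cyp51 overlaps Akap9 by 166 and Srebf1 overlaps Rai1 by 109. How strand was handled is not given, so reads of these pairs may not be separated.

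Sqle, squalene epoxidase and a rate-limiting enzyme of the late pathway, was at 25.1, 33.7 and 24.4 FPKM in WT and at 32.8, 25.4 and 24.8 in deficient cells. The group means were both 27.7 FPKM, and the 95% interval of the log2 fold change was -0.42 to 0.42. Without deficient replicate 1, which was high, the fold change was -0.13. Cyp51, the C14 demethylase, was at 54.2 ± 10.4 and 47.9 ± 2.24 FPKM (SD, n = 3), and Msmo1, the C4 methyl oxidase, at 34.8 ± 4.74 and 30.4 ± 3.14. Lss, which closes the sterol ring, was at 11.3, 20.7 and 12.6 FPKM in WT and at 12.1, 9.69 and 9.28 in deficient cells. WT replicate 2 was its highest library, and the log2 fold change was -0.44 with that library and -0.20 without it (limma adjusted p = 0.425 and 0.582).

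The remaining late enzymes lay in both directions. Hsd17b7, the sterol 3-ketoreductase, was at 3.64 ± 0.729 FPKM in WT and 4.83 ± 1.14 in the deficient libraries (SD, n = 3). Its log2 fold change of 0.32 was the most positive of the 32 genes (limma adjusted p = 0.469). Ebp, the sterol isomerase, was at 35.8 ± 4.02 and 38.1 ± 1.08 FPKM. Sc5d, the C5 desaturase, was at 34.9, 39.7 and 32.2 FPKM in WT and at 23.2, 35.5 and 36.9 in deficient cells. Only deficient replicate 1 lay outside the WT range of Sc5d, and the fold change turned from -0.18 to 0.030 without it.

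**Figure D3:**
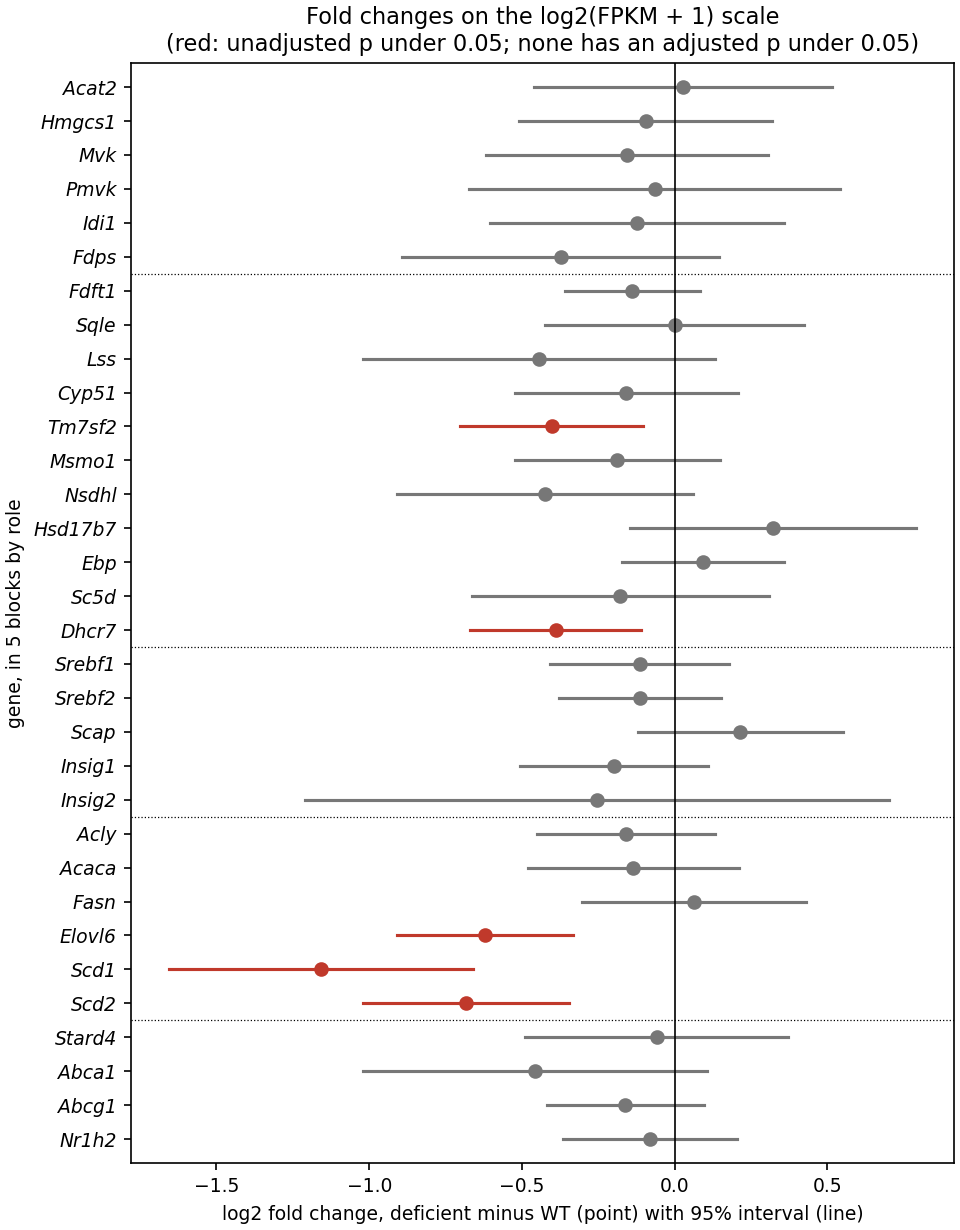
Points give the log2 fold change (deficient minus WT, log2(FPKM + 1) scale) and lines the 95% interval from limma for the 32 genes, in blocks by role. The intervals of Elovl6, Scd1, Scd2, Dhcr7 and Tm7sf2 (red) lie below 0, without adjustment for the number of genes tested, and the other 27 include 0.

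Of the 5 genes for SREBP and its control, 0 had an unadjusted p under 0.05, and the groups of all 5 overlapped. Among all tested genes, 9.29% were higher and 5.87% lower at that p. A further reading, groups without overlap, held for 15.9% (higher) and 10.4% (lower) of all tested genes. Srebf2, which encodes the SREBP that mainly drives sterol genes, was at 77.1, 82.2 and 79.2 FPKM in WT and at 82.1, 70.1 and 68.5 in deficient cells. Srebf1, which encodes the SREBP forms that mainly drive fatty acid genes, was at 67.7, 61.8 and 59.6 FPKM and at 64.7, 51.6 and 58.6. Both had a log2 fold change of -0.11 (95% intervals -0.38 to 0.15 and -0.41 to 0.18), and both had -0.19 without deficient replicate 1. The ratio of Srebf2 to Srebf1 was 1.27 ± 0.110 in WT and 1.27 ± 0.0960 in deficient libraries (SD, n = 3). These are transcript levels, and SREBP activity depends on cleavage, which was not measured.

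Insig1, itself a target of SREBP, was at 51.7, 49.9 and 42.3 FPKM in WT and at 46.6, 39.3 and 39.1 in deficient cells. Its groups overlapped through deficient replicate 1 (log2 fold change -0.20, limma adjusted p = 0.491). Insig2, the form less tied to SREBP, was at 12.7, 19.0 and 15.1 FPKM in WT and at 6.43, 17.3 and 18.1 in deficient cells. Deficient replicate 1 was the lowest of the 6 and the other two lay within the WT range, so the fold change of Insig2 turned from -0.25 to 0.19 without it (limma adjusted p = 0.763 and 0.585). In that library Insig1 was 7.25 times Insig2, against 2.16 to 4.06 times in the other 5. Scap, the SREBP escort, was at 20.4 ± 2.07 and 23.9 ± 3.28 FPKM (SD, n = 3), with a log2 fold change of 0.22 (limma adjusted p = 0.494), or 0.33 without deficient replicate 1.

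Sterol transport and efflux genes had 4 tested members, with 4 negative fold changes, 0 past the threshold and a median of -0.12. Abca1, a cholesterol efflux carrier and LXR target, was the lowest of the 32 genes, at 2.84, 1.75 and 2.41 FPKM in WT and at 0.954, 1.25 and 2.17 in deficient cells. The groups overlapped through deficient replicate 3 (log2 fold change -0.46, limma adjusted p = 0.405). Within each genotype Abca1 had the same order of libraries as the summed macrophage and myeloid markers. Those sums were 140, 34.1 and 63.9 FPKM in WT and 20.8, 63.6 and 124 in deficient libraries. The part of such cells in Abca1 was not tested. Abcg1, a second LXR-driven carrier, was at 21.4 ± 2.23 and 18.9 ± 0.765 FPKM (SD, n = 3). Nr1h2, which encodes LXR beta, was at 53.3 ± 5.81 and 50.3 ± 3.36, and Stard4, a sterol carrier of the cytosol, at 27.3 ± 4.11 and 26.3 ± 5.31. Without deficient replicate 1 the fold change went from -0.079 to -0.030 for Nr1h2 and from -0.059 to -0.21 for Stard4.

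In WT the sterol enzymes had a largely shared order of libraries: replicate 2 was the highest library for 14 of the 17 sterol enzymes (82.4%) and replicate 3 the lowest for 14. Over all tested genes replicate 2 was the highest WT library for 46.7% and replicate 3 the lowest for 33.4%. Among deficient libraries replicate 1 was the highest for 5 of the 6 early enzymes, against 36.1% of all tested genes. It was the highest for 5 and the lowest for 6 of the 11 late enzymes, so the deficient libraries had no such order over all 17. Relative to the WT mean, the median of the early enzymes was 0.00, 0.24 and -0.22 in the WT libraries and 0.15, -0.26 and -0.26 in the deficient ones on the log2 scale. Thus 2 of the 3 deficient libraries lay near WT replicate 3 in these enzymes. The late enzymes stood at -0.15, -0.18 and -0.16 in the deficient libraries, beside -0.17 in WT replicate 3. The median of the 6 fatty acid genes stood at -0.54, -0.46 and -0.28, below all 3 WT libraries (-0.05, 0.11 and -0.06). That of all tested genes stood at -0.03, 0.07 and 0.06. The 6 fatty acid genes were split, with log2 fold changes of -1.16, -0.68 and -0.62 for Scd1, Scd2 and Elovl6. Those of Acly, Acaca and Fasn were -0.16, -0.14 and 0.064.

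**Figure D4:**
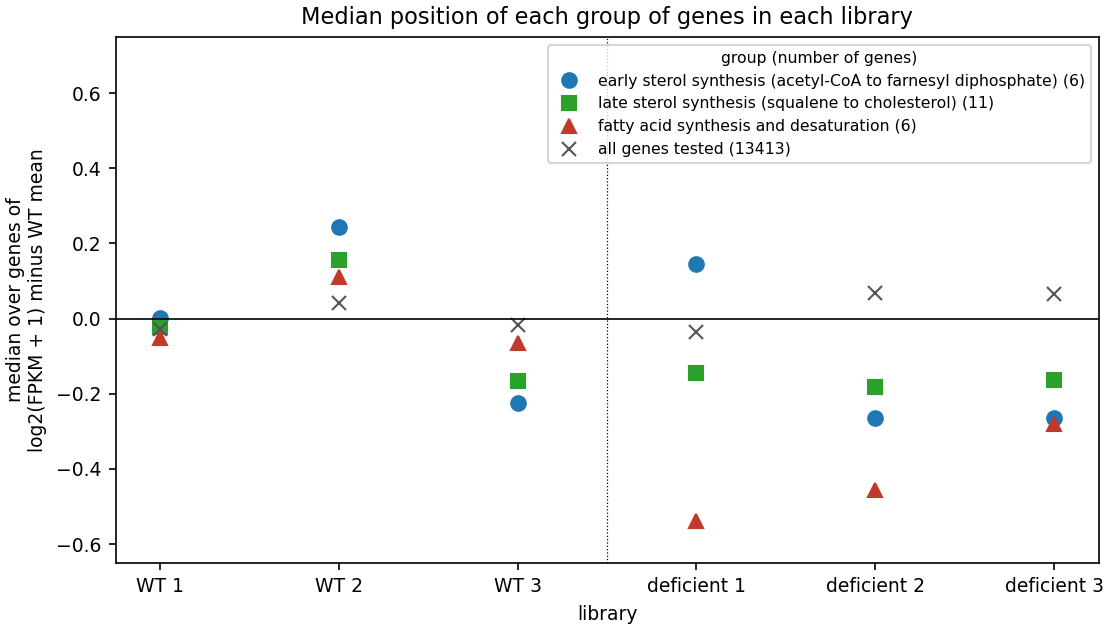
Each symbol is the median, over the genes of a group, of log2(FPKM + 1) minus the WT mean in 1 library: circles are early sterol enzymes, squares late ones, triangles the 6 fatty acid genes and crosses all tested genes. The triangles lie below the WT values in all 3 deficient libraries, while the circles spread from -0.22 to 0.24 within WT. Among the fatty acid genes, Scd1, Scd2 and Elovl6 had larger differences than Acly, Acaca and Fasn.

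Markers of T cells and of other cells of the culture were measured beside these values. The 8 T cell and Treg identity markers summed to 1851 to 1894 FPKM in WT and 1647 to 1874 in deficient libraries, and 4 of them separated the groups. Over all tested genes 10.4% were lower and 15.9% higher in each deficient library. Ctla4, Cd2 and Cd3g were lower in each deficient library, at 67.0%, 87.1% and 90.7% of their WT means, and Ikzf2 was higher in each, at 186%. Ctla4 was lowest in deficient replicate 1, at 103 FPKM. It was at 204 and 203 in replicates 2 and 3, beside 238 to 275 in WT. The summed FPKM of the 10 macrophage and myeloid markers ranged from 34.1 to 140 in WT and from 20.8 to 124 in deficient libraries, with 0 of the 10 separating the groups. That of the 8 B cell markers ranged from 31.2 to 60.6 and from 43.5 to 58.6, with Blnk alone separating the groups. The 6 CD8 T cell and NK cell markers summed to 38.9 to 47.3 in WT and to 40.95, 52.4 and 73.8 in the deficient libraries, and 2 of them were higher in each deficient library: Cd8a (8.80 to 11.7 against 13.8 to 29.1) and Klrb1c (0.0692 to 0.126 against 0.598 to 0.760, below the filter). Ncr1, which defines NK cells, was at or near 0 in each library. The 6 dendritic cell markers were all below the filter and summed to 1.21 to 1.80 and 1.22 to 1.58. The part of T cell state and of other cells in the differences of the 32 genes, Scd1, Scd2 and Elovl6 among them, was not tested.

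Neighbouring pathways were read from 8 further lists, in which limma called 0 genes at an adjusted p under 0.05 (1.07% of all tested genes were called). At an unadjusted p under 0.05, 14 of their 121 tested genes were higher and 10 lower, beside 9.29% and 5.87% of all tested genes. In 25 of the 121 each deficient library lay above each WT library and in 13 below, beside 15.9% and 10.4% of all tested genes. These shares also stand beside the counts of each list below. The 11 genes of SREBP cleavage and sterol-regulated degradation had a median of 0.13 on the log2 fold scale, 3 of them higher and 0 lower at an unadjusted p under 0.05. Mbtps1, the site-1 protease that makes the first cut in SREBP, was at 40.1 ± 3.39 FPKM in WT and 52.2 ± 2.30 in deficient cells (SD, n = 3, limma adjusted p = 0.180). Each deficient value of Mbtps1 lay above each WT value, the opposite order to Scd1 and Elovl6.

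The isoprenoid branch takes farnesyl diphosphate away from sterols, for prenylation among other uses. Its median was 0.15 over 14 tested genes, with 3 higher and 2 lower at an unadjusted p under 0.05. Rabggtb, a subunit of the enzyme that prenylates Rab proteins, was at 27.2 ± 3.25 and 40.8 ± 3.29 FPKM (limma adjusted p = 0.110). The 2 lower genes were Rabggta, another subunit of that enzyme, and Fntb. Rabggta was at 11.0 ± 0.835 and 8.46 ± 0.894 FPKM and Fntb at 18.9 ± 0.824 and 15.6 ± 1.26 (limma adjusted p = 0.250 and 0.284). Icmt, which methylates prenylated proteins, stood at 9.38 ± 0.226 and 11.8 ± 0.647 (adjusted p = 0.186). The 18 tested genes of uptake, storage and intracellular transport had a median of -0.063, with 2 in each direction at an unadjusted p under 0.05. Npc2, which passes sterol out of lysosomes, was at 206 ± 11.6 and 139 ± 19.7 FPKM (limma adjusted p = 0.147). Mylip, an LXR target that degrades lipoprotein receptors, stood at 6.12 ± 0.800 and 4.12 ± 0.678 (adjusted p = 0.222).

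Among the 8 tested genes of oxysterol synthesis and LXR partners, the median was -0.030, with 1 higher and 2 lower at an unadjusted p under 0.05. Rxra, which encodes a retinoid X receptor that pairs with LXR, was at 2.63, 5.11 and 2.96 FPKM in WT and at 9.24, 7.96 and 9.49 in deficient cells. Each deficient value lay above each WT value (log2 fold change 1.15, SE 0.213, limma adjusted p = 0.0807). Gpr183, a receptor for oxysterols, was at 7.28 ± 1.04 and 3.67 ± 1.43 FPKM (SD, n = 3, limma adjusted p = 0.198). The oxysterol enzyme genes Ch25h, Cyp27a1, Cyp7b1 and Cyp46a1 were below the filter.

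Of the 15 tested genes of acetyl-CoA supply, elongation and desaturation outside the 32, 1 was higher and 3 were lower at an unadjusted p under 0.05, with a median of -0.085. Hacd3, a dehydratase of fatty acid elongation, was at 24.7 ± 0.201 and 33.9 ± 3.53 FPKM (SD, n = 3, limma adjusted p = 0.141), and Idh1, a source of cytosolic NADPH, at 7.73 ± 1.15 and 4.79 ± 0.629 (adjusted p = 0.149). Fads2, the delta-6 desaturase, was chosen after its values were seen. It was at 10.1, 15.2 and 10.1 FPKM in WT and at 9.48, 4.63 and 5.62 in deficient cells (limma adjusted p = 0.279).

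In fatty acid activation and glycerolipid synthesis, 16 tested genes had a median of 0.037, with 1 higher and 1 lower at an unadjusted p under 0.05. The pair that makes triglyceride lay in opposite directions. Dgat1 was at 46.7, 56.5 and 64.3 FPKM in WT and at 17.3, 27.7 and 28.7 in deficient cells, with no overlap (log2 fold change -1.17, SE 0.226, limma adjusted p = 0.0887). Dgat2 was at 1.13 ± 0.214 and 2.03 ± 0.519 FPKM (SD, n = 3), with a log2 fold change of 0.50 (limma adjusted p = 0.280). Dgat1 was thus the main form in both genotypes.

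The 20 tested fatty acid oxidation genes had a median of 0.094, with 3 higher and 0 lower at an unadjusted p under 0.05 and 7 that were higher in each deficient library, beside 9.29%, 5.87% and 15.9% of all tested genes. Its median was 0.16 without deficient replicate 1 and 0.020 without deficient replicate 2. Cpt1a, which admits long-chain fatty acids to mitochondria, was at 18.2 ± 2.89 and 27.0 ± 0.885 FPKM (SD, n = 3, limma adjusted p = 0.128), and Decr1, a reductase for unsaturated chains, at 11.5 ± 0.973 and 15.1 ± 0.779 (adjusted p = 0.167). The 19 tested genes of mTORC1 and growth control upstream of SREBP had a median of 0.032, with 0 at an unadjusted p under 0.05 in either direction. Rheb, the GTPase that activates mTORC1, was at 34.0 ± 1.27 and 40.3 ± 3.25 FPKM (limma adjusted p = 0.333). Sesn2, an inhibitor of that complex, stood at 12.2 ± 2.89 and 15.4 ± 1.28 (adjusted p = 0.416).

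**Figure D5:**
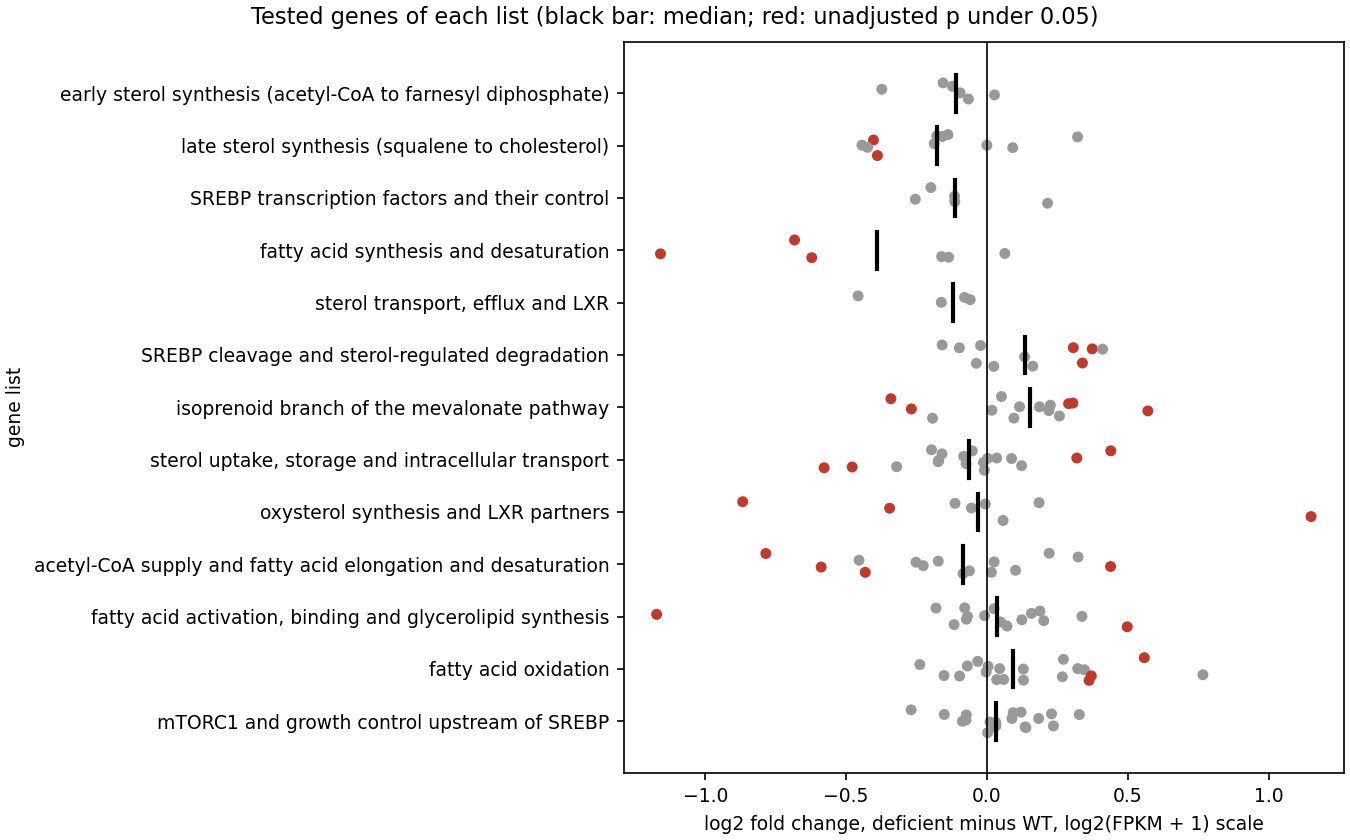
Each point is the log2 fold change (deficient minus WT, log2(FPKM + 1) scale) of 1 tested gene in the 5 groups of the 32 genes (top) and the 8 neighbouring lists, black bars are medians, and red marks an unadjusted p under 0.05. The fatty acid group has the lowest median, at -0.39, which falls between its genes Elovl6 (-0.62) and Acly (-0.16). The oxidation and isoprenoid branch lists have medians of 0.094 and 0.15.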

How the data were processed

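RNA sequencing values of 6 sorted aTreg libraries were used, 3 WT and 3 BMPR1a-deficient, grouped by their titles. The authors deposited FPKM per gene, and TopHat2, Cufflinks, Cuffdiff and GRCm38.p4 are named per the submitters' processing notes; for versions, annotation, strand handling and scaling between libraries, nothing is given in the sources used here. All 6 value columns matched a title, and 0 were left over. GENCODE M21 gave symbols and positions in GRCm38 for 24876 of 25759 identifiers (96.6%). Depth was approximated from the densest low value of FPKM times transcript length, over genes of 1000 to 6000 bases, and is not a count.

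The fit was limma 3.58.1 (R 4.3.3) over the genes whose mean FPKM reached 1, on log2(FPKM + 1), for genotype alone, with a trended eBayes, two-sided tests and Benjamini-Hochberg adjustment over all 13413 genes at 0.05. It was tested on simulated data, with normal noise drawn independently for each library. There it recovered 58% of 100 genes changed by a log2 of 1 and 86% of 100 changed by 2, and 4% of its calls were false. Changes smaller than 1, the size of most fold changes here, were not simulated. The members and lists were chosen with earlier results of these data known, so counts over them are descriptions. By rule, the text gives values per library for members whose groups did not overlap, paralog pairs and the 5 highest members, and names 2 genes with the smallest p of each further list, of which 1 is not reported here. Outside that rule, Scd3, Scd4, Acat3 and Fads2 were added, and so were Rabggta and Fntb after their values were seen. Sqle, Lss, Sc5d, Abca1, Rxra, Dgat1 and Ctla4 were given per library after their values were seen. Alternatives varied the pseudocount, filter, scaling, eBayes trend, weights, replicate block and each library.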

Additional observations from a re-analysis of the deposited data

How the results depend on the processing

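Of 13 alternatives, 10 left 0 of the 32 genes past the threshold in limma. Quantile normalization called 2 lower (Scd1 and Elovl6, adjusted p = 0.0453 and 0.0323, where 0.522% of all genes were called lower) and array weights called 4 lower (also Scd2 and Dhcr7, where 3.03% were). Leaving out each library in turn gave 0 to 1 called lower, the 1 being Elovl6 without BMPR1a-deficient replicate 1. Over all alternatives the adjusted p ranged from 0.018 to 0.206 for Scd1, 0.0264 to 0.257 for Scd2, 0.0098 to 0.326 for Elovl6, 0.0491 to 0.501 for Dhcr7 and 0.0885 to 0.440 for Tm7sf2, and the fold changes of these 5 kept their sign. The median over the 32 genes lay between -0.21 and -0.10. Medians of neighbouring lists moved as well: 0.020 to 0.18 for oxidation, -0.16 to -0.0022 for acetyl-CoA supply and elongation, and -0.11 to -0.010 for uptake. Those of glycerolipid synthesis (-0.020 to 0.12), oxysterols (-0.064 to 0.019) and mTORC1 (-0.0091 to 0.094) changed sign.

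Over all genes, 100 were called higher and 43 lower. With array weights 833 and 407 were called, with quantile normalization 88 and 70, and leaving out each library in turn gave 10 to 134 higher and 4 to 76 lower. With a replicate block 5 and 5 were called over all genes and 0 of the 32. Same-numbered libraries deviated together only weakly (correlations 0.010, 0.064 and 0.052), and not every library correlated best with its own number, so the numbers were not taken as pairs.

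Of 416 fold changes of single genes under the alternatives, 24 in 10 genes changed sign, with limma adjusted p-values of at least 0.446, and 7 passed the threshold. Of 208 values of the 16 genes taken by smallest p from neighbouring lists, 11 passed it and 0 changed sign. Acat2 was -0.016 with upper-quartile scaling, -0.020 with quantile normalization and -0.047 with array weights. With array weights Idi1 was 0.044, Sc5d 0.058, Insig2 0.20 and Fasn -0.051, and Sqle was 4.0e-05 with a pseudocount of 0.1. Leaving out each library in turn gave -0.14 to 0.16 for Acat2, -0.19 to 0.061 for Hmgcs1, -0.33 to 0.079 for Pmvk, -0.23 to 0.073 for Idi1, -0.13 to 0.14 for Sqle, -0.30 to 0.030 for Sc5d, -0.49 to 0.19 for Insig2, -0.082 to 0.14 for Fasn, -0.21 to 0.050 for Stard4 and -0.15 to 0.0023 for Nr1h2. The cause of these changes was not tested. With 3 libraries per group, differences smaller than the intervals given are not detectable, and FPKM without counts do not show the counting error of low genes.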
